A study of Mus musculus with 6 samples.

Results

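The nuclear-encoded subunits of the mitochondrial respiratory chain and ATP synthase were examined in RNA-seq counts of CD144-enriched cells from ischemic mouse hind limb muscle. Members were the protein-coding genes outside the mitochondrial chromosome whose symbols begin with Ndufa, Ndufb, Ndufc, Ndufs, Ndufv, Uqcr, Cox4 to Cox8 or Atp5, together with Sdha, Sdhb, Sdhc, Sdhd and Cyc1, and without the Ndufaf assembly factors. This gave 89 of the 47729 genes counted, with 39 in complex I, 4 in complex II, 9 in complex III, 19 in complex IV and 18 in complex V. CD144 is VE-cadherin, and magnetic beads against it enrich endothelial cells (ECs). All mice received a high-fat, high-sucrose (HFHS) diet and hind limb ischemia surgery on day 0, and all received an adenovirus in the muscle. By the labels the virus was given on days 1 and 4, with harvest after 1 week, and the study's methods give a later second injection. The 6 libraries fell into 3 groups of 2: WT mice given a virus for green fluorescent protein (WT + GFP), Leene-KO mice given the same virus (KO + GFP), and Leene-KO mice given a virus for GFP-tagged human LEENE (KO + LEENE). The KO is a whole-animal CRISPR/Cas9 deletion of the mouse region that corresponds to human LEENE, with its upstream enhancer, on a C57BL/6J background. No cell-specific promoter for the virus is named in the sources used here.

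The respiratory chain passes electrons from NADH (complex I) and succinate (complex II) through complexes III and IV to oxygen, and complex V, the ATP synthase, uses the resulting proton gradient to make ATP. Most subunits are encoded in the nucleus, and a smaller core of complexes I, III, IV and V is encoded in mitochondrial DNA. Subunits of a complex are needed in fixed proportions. ECs are known for a low dependence on oxidative phosphorylation for ATP, while muscle fibers carry their own isoforms of several complex IV subunits.

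Libraries held 1770992 to 5602603 reads assigned to genes. The floor was set at 3 reads, from 0.536 to 1.69 CPM (reads per 1000000 reads of the library), and no unique molecular identifiers were collapsed, so intervals cover counting error only. Per the file headers, both libraries of a group carry 1 shared facility sample number, and the labels leave unsaid whether different mice were used. Over subunit genes with 20 or more reads in a pair, both libraries of a group divided their subunit reads alike within read sampling (chi-square test P = 0.117, 0.149 and 0.412). Set against library totals, the median squared difference was 0.698, 1.89 and 1.1 times sampling noise within WT + GFP, KO + GFP and KO + LEENE. Between the first libraries of the groups it was 92.4 to 556 times. P values below therefore speak of differences between libraries and not between conditions. In bulk RNA, fewer cells of a type and less RNA per cell cannot be told apart. The groups also differed in marker genes of other cells. The 6 fibroblast markers summed to 61.8 and 69.1 CPM in WT + GFP libraries, 15940 and 15850 in those of KO + GFP, and 81.9 and 82.6 in those of KO + LEENE. Dcn, Col3a1 and Col1a2 carried this sum, while Col1a1 differed by a log2 fold change of only 0.86 by KO and Pdgfra by -0.156 (edgeR adjusted P = 0.372). The 10 macrophage markers ran from 30.0 to 40.5, from 807 to 843 and from 14.0 to 17.5 CPM in the same order, with Adgre1, Mrc1, Lyz2 and Fcgr1 higher by KO, C1qb lower (-3.07, edgeR adjusted P = 3.68e-09), and Cd68, Itgam, C1qa, C1qc and Csf1r at 4 reads or fewer in KO + GFP. The 12 endothelial markers ran from 310 to 335, from 2696 to 2866 and from 334 to 346 CPM, and Tek and Esam never exceeded 6 reads. The members of that list did not move together: Emcn had 14 and 8, then 12245 and 8648, then 8 and 7 reads, whereas Kdr had 808 and 708, then 13 and 9, then 47 and 41 (log2 fold change by KO -5.69, edgeR adjusted P = 4.73e-177), and Pecam1 was also lower by KO (-0.36, adjusted P = 0.0194). Cdh5, the gene for CD144 itself, had 332 and 283 reads in WT + GFP libraries, 322 and 196 in those of KO + GFP, and only 5 and 18 in those of KO + LEENE. The 12 muscle fiber markers were lower in WT + GFP (7.72 and 5.09 CPM) than in KO + GFP (35.9 and 35.3) and KO + LEENE (36.1 and 29.6). Among them Myh4 had 1 and 3, then 102 and 65, then 1 and 0 reads, Pvalb was read mainly in KO + GFP (74 and 52) and Acta1 in KO + LEENE (53 and 43), while Ckm, Tnnc2 and Tnni2 had 0 or 1 read in every library. The 6 mural markers summed to at most 4.46 CPM in the other groups and to 37.8 and 49.1 in KO + LEENE libraries, in which Rgs5 had 51 and 69 reads. The 4 erythroid markers were read most in WT + GFP (2564 and 2653 CPM), whereas KO + GFP had 1219 and 1267 and KO + LEENE 909 and 865. Hba-a1 gave nearly all of these reads, and Hbb-bs and Hbb-bt differed by 0.0553 and 0.0729 by KO and were not called. The part of these cells in the results below was not tested.

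Subunit reads were first counted gene by gene. Of the 89 genes, 34 were above the floor in both WT + GFP libraries, 35 in the KO + GFP pair and 21 in the KO + LEENE pair. When every library was thinned to the smallest total, an alternative chosen after seeing the data, the numbers were 29, 26 and 21. There were 11 genes above the floor in all 3 groups, 33 were above it in exactly 1 group, and 33 in none. Genes above the floor in 1 group made up 37.1% of the subunits and 17.8% of the 21223 protein-coding nuclear genes in the files. For all 3 groups the shares were close (12.4% and 13.8%), and for no group they were 37.1% and 57.9%. After thinning the shares for exactly 1 group were 33.7% and 16.5%. Those for all 3 groups were then 8.99% and 9.46%, and those for no group 44.9% and 65.7%. Of the 33 genes above it in no group, 25 stayed at or under the floor in every library, and Cox5b, Cox8b and Atp5pd had 0 reads throughout. Complex I had 18 of its 39 genes above the floor in 1 group and 2 in all 3 groups, and complex V had 7 and 4 of 18. A count of 0 here allows up to 3 reads, so genes at or under the floor were not shown to be absent.

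**Figure D1:**
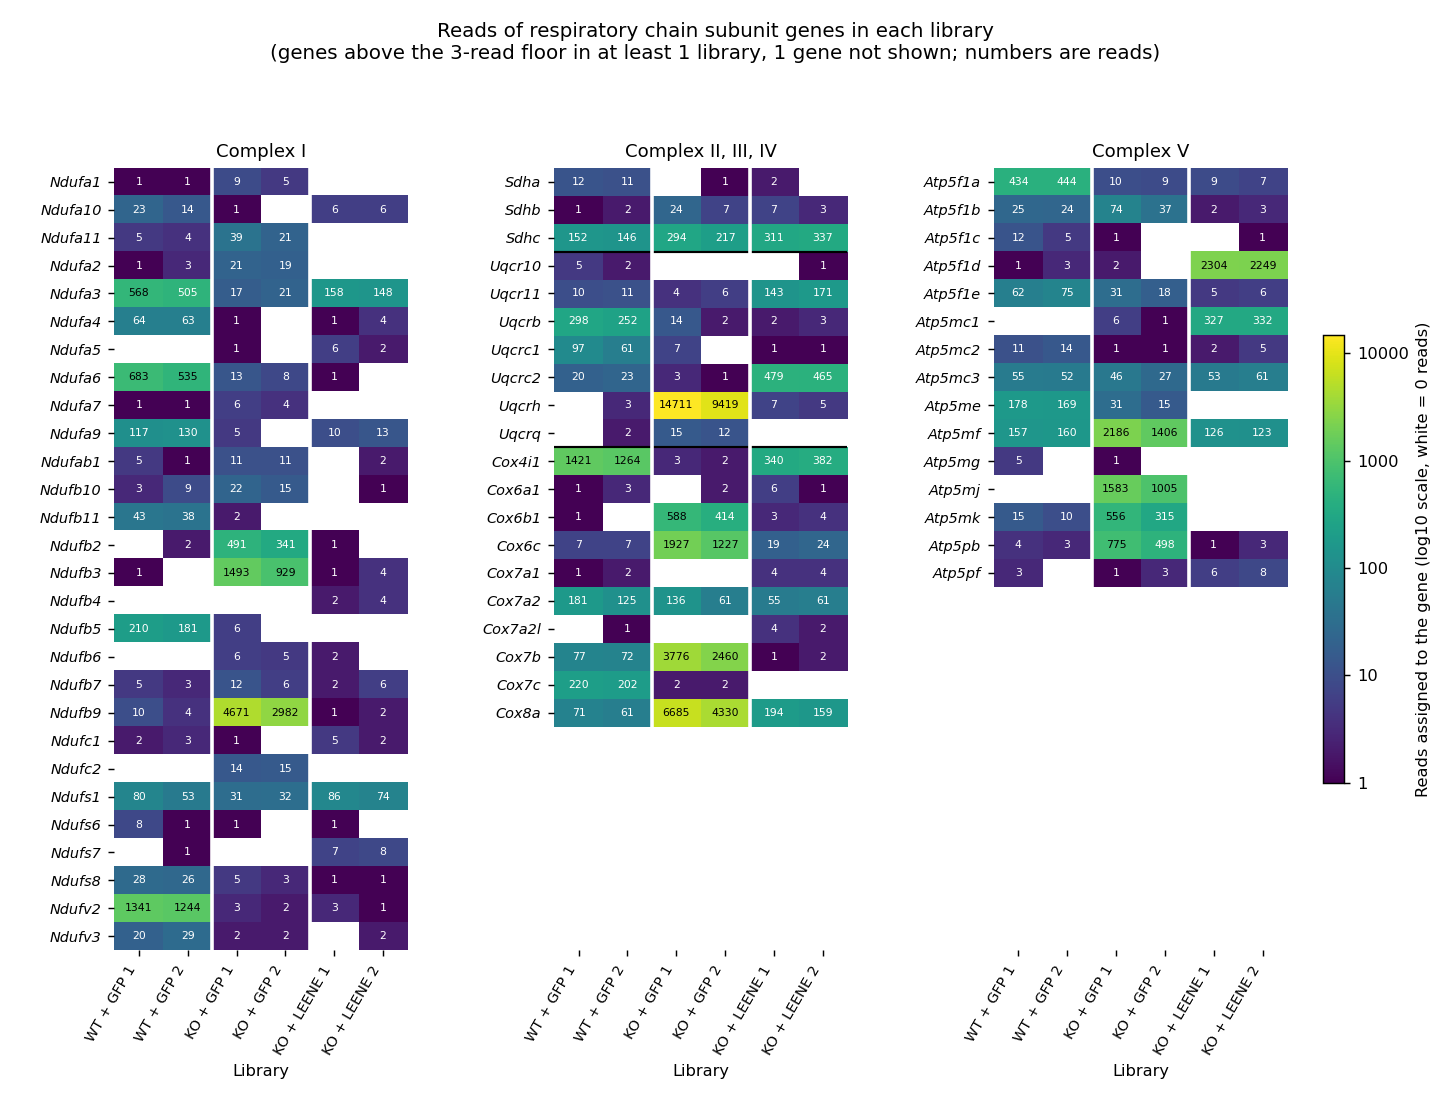
Reads assigned to each subunit gene (rows) in each of the 6 libraries (columns), colored on a log10 scale with white for 0 reads, for genes above 3 reads in at least 1 library (1 such gene is not shown). Both libraries of a group look alike, while genes of the same complex, such as Ndufv2 and Ndufb9 or Uqcrh and Uqcrb, are bright in different groups.

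**Figure D2:**
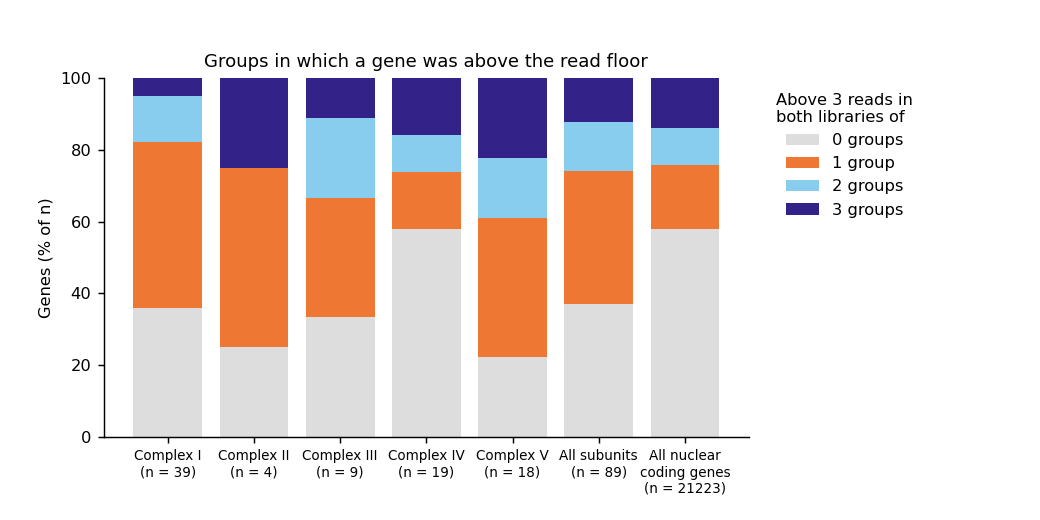
Share of genes (y axis, percent of n) that were above 3 reads in both libraries of 0, 1, 2 or 3 groups, for each complex, all 89 subunits and all 21223 protein-coding nuclear genes. The share for exactly 1 group is 37.1% among subunits and 17.8% among all nuclear coding genes.

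Summed reads were then compared by complex, before any rescaling between libraries. Together the subunits took 0.149% and 0.147% of reads in WT + GFP libraries, 0.733% and 0.727% in those of KO + GFP, and 0.266% and 0.263% in KO + LEENE. Complex I summed to 711 and 693 CPM in WT + GFP libraries, 1347 and 1344 in those of KO + GFP, and 167 and 160 in KO + LEENE. Complex II was lowest in WT + GFP (36.4 and 38.8 CPM), followed by KO + GFP (56.8 and 62.1), and highest in KO + LEENE (181 and 190). The order thus differed between complexes, and no pair of groups overlapped for either. Complex III had 95.1 and 86.0 CPM in WT + GFP libraries, 2633 and 2604 in those of KO + GFP, and 358 and 362 in KO + LEENE. Complex IV had 438 and 422, then 2342 and 2344, then 354 and 358 CPM in the same order. Complex V had 213 and 233, then 947 and 920, then 1601 and 1562 CPM. On this scale KO + GFP was highest for complexes I, III and IV, and KO + LEENE for complexes II and V.

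A few genes made up these sums. Uqcrh gave 99.7% and 99.8% of complex III reads in KO + GFP, Sdhc gave 91.3% to 98.8% of complex II reads in every library, and Atp5f1d gave 81.2% and 80.4% of complex V reads in KO + LEENE. The 5 genes with the most reads took 65.7% of subunit reads in WT + GFP libraries, 78.0% and 78.1% in those of KO + GFP, and 79.8% and 79.9% in those of KO + LEENE. The leading gene was Cox4i1 (21.0% and 20.8%), Uqcrh (35.8% and 35.7%) and Atp5f1d (48.9% and 47.7%), respectively. The sum over all subunits was thus led by a different gene in each group. With TMM scaling, which adjusts for RNA composition and carried factors from 0.661 to 1.52, the summed subunit reads differed by a log2 ratio of 2.78 in KO + GFP against WT + GFP, -2.61 in KO + LEENE against KO + GFP and 0.168 in KO + LEENE against WT + GFP. Scaling by library size alone gave 2.3, -1.46 and 0.835, and turned complex V in KO + LEENE against KO + GFP from -0.387 to 0.761. Library size alone also moved the median over all genes tested (log2 fold change) from -0.0861 to -0.569, from -0.0112 to 1.07 and from -0.106 to 0.498 in these comparisons. Fold changes below use TMM.

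**Figure D3:**
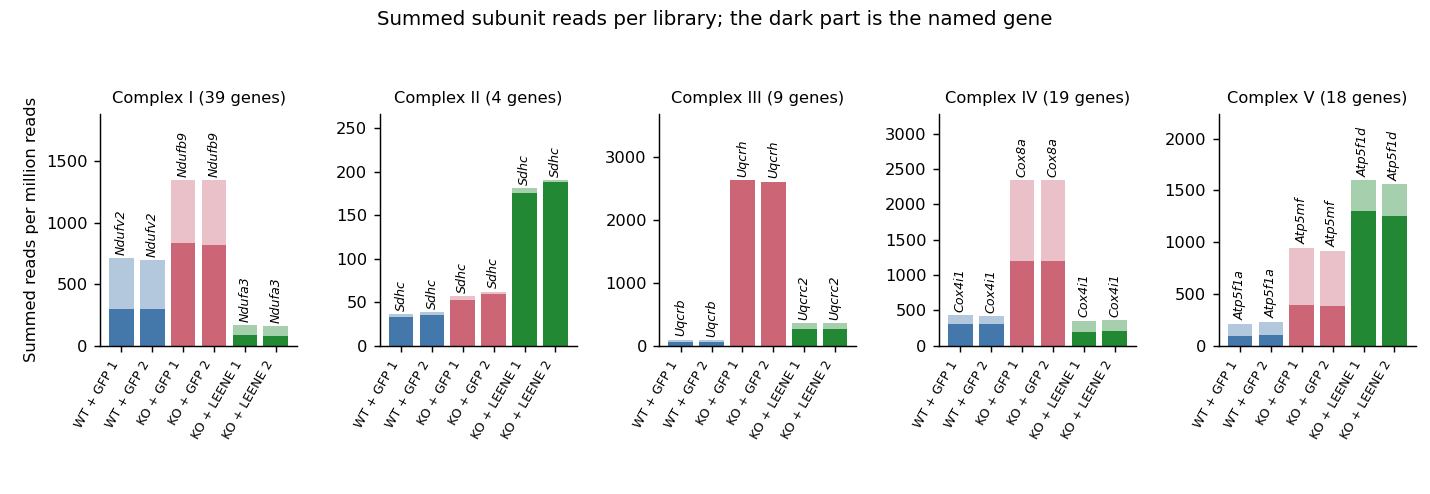
Summed CPM (y axis) of the subunit genes of each complex in each library, with the named gene of most reads drawn dark. KO + GFP libraries reach 2633 and 2604 in complex III through Uqcrh, and KO + LEENE libraries reach 1601 and 1562 in complex V mainly through Atp5f1d.

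To ask how subunit expression differed with Leene KO, KO + GFP was compared with WT + GFP. Of the 48 subunit genes with enough reads for the test, 21 were higher and 21 lower in KO + GFP at an adjusted P value under 0.05, and 6 were not called. Among all 8903 genes tested, 70.1% were called, 34.3% as higher and 35.8% as lower. Genes enter the test through the group in which they are high, so the counts describe the 48 tested genes and not all members. The median log2 fold change of the tested subunits was -0.396, or -0.199 with genes at 0 reads in a group set to their 3-read bound, against -0.0861 for all genes. The median size of the change was 4.46 on the log2 scale, against 2.09 for all genes. Both directions occurred in every complex: 7 higher and 11 lower of 19 tested in complex I, 2 and 1 of 3 in complex II, 2 and 3 of 6 in complex III, 4 and 2 of 7 in complex IV, and 6 and 4 of 13 in complex V.

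Whether LEENE overexpression went with other subunit levels in KO mice was asked by setting KO + LEENE against KO + GFP. In KO + LEENE, 13 of the 48 subunit genes were higher, 24 were lower and 11 were not called. Of all genes tested, 67.8% were called, 32.8% as higher and 35.0% as lower. The median log2 fold change of the subunits was -1.80, or -1.41 with the bounds, against -0.0112 for all genes. Scaling by library size alone gave 16 higher and 20 lower subunits, with a median of -0.686 where all genes had 1.07, and it moved the share of called genes that were lower from 51.6% to 32.9% over all genes. Complex V had 4 higher and 7 lower of 13, and complex IV had 1 higher and 5 lower of 7.

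KO + LEENE was also set against WT + GFP. This comparison shares libraries with each of the others, and the values are therefore given side by side only. The subunits had 15 genes higher and 23 lower in KO + LEENE, with 10 not called. Of all genes tested, 70.7% were called, 33.9% as higher and 36.9% as lower. The median log2 fold change was -1.24, or -0.96 with the bounds, against -0.106 for all genes. Complex I had 3 higher and 11 lower of 19, and each of the 7 tested complex IV genes was called, 3 higher and 4 lower, of which Cox7a2 was lost with library size alone (-0.117, adjusted P = 0.569). In the 3 comparisons, 19, 26 and 27 of the 48 genes had 1 of the compared groups at or under the floor.

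**Figure D4:**
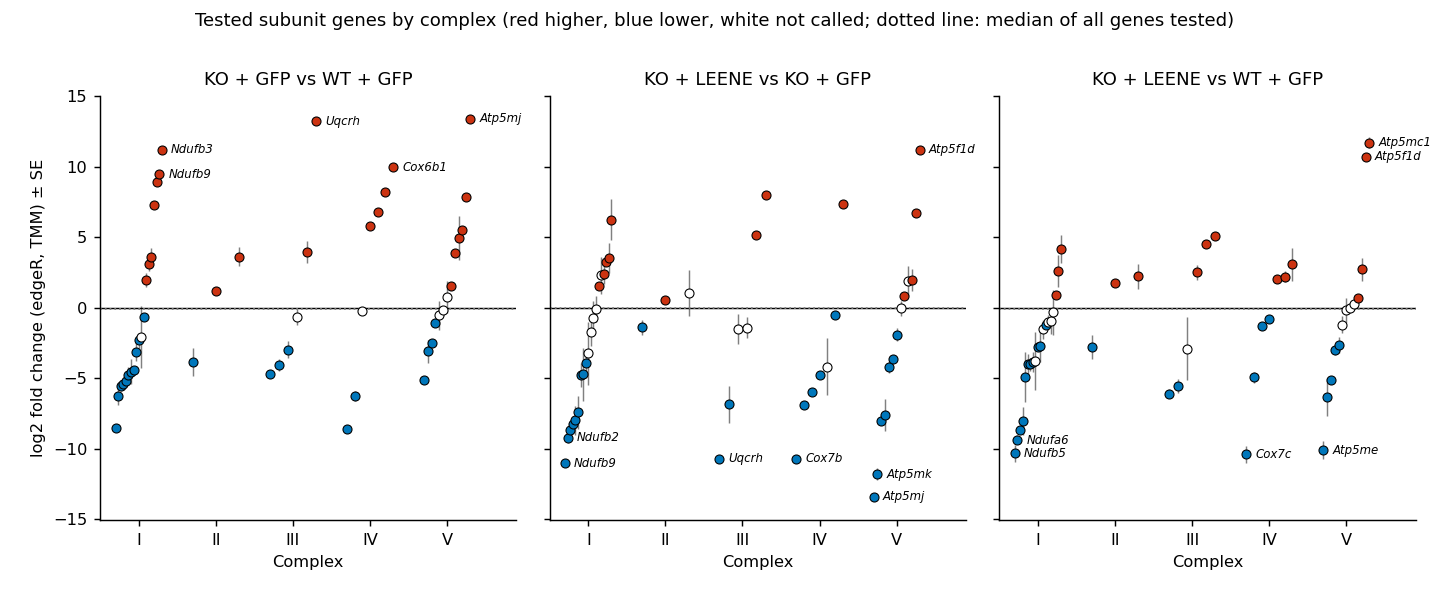
Log2 fold change (y axis, edgeR with TMM, bars ± SE) of the 48 tested subunit genes by complex in the 3 comparisons, with red for higher, blue for lower and white for not called, and a dotted line at the median of all genes. Both red and blue points appear within each complex that has more than 3 tested genes, and the height of a point with a compared group near 0 reads depends on the prior count of the fit.

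Most tested subunits were called highest in a single group. Many of them passed the read filter only through the group in which they were high, so a highest call there was largely fixed beforehand. The numbers below describe the tested genes and are no test of the members. Against both other groups, 17 genes were higher in WT + GFP (35.4% of 48), 19 in KO + GFP (39.6%) and 9 in KO + LEENE (18.8%). Over all genes tested these shares were 26.5%, 25.7% and 24.3%. Complex I had 9 such genes in WT + GFP, against 7 for KO + GFP and 2 for KO + LEENE. Complexes II and III were divided evenly, with 1 and 2 genes in each group. Complex IV had 2, 4 and 0 genes, and complex V had 3, 5 and 4.

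The core subunits of complex I, which carry the electron path, were split between groups. Ndufv2, an iron-sulfur protein at the entry point for NADH electrons (ENSMUSG00000024099, GRCm38 chromosome 17, 66078795 to 66101559), had 1341 and 1244 reads in WT + GFP libraries, 3 and 2 in those of KO + GFP, and 3 and 1 in those of KO + LEENE. WT + GFP stood apart from both other groups, which overlapped. The ratio of WT + GFP to KO + GFP was 392 (95% counting interval 168 to 1210, adjusted P = 1.24e-274), and the ratio of WT + GFP to KO + LEENE was 422 (165 to 1550, adjusted P = 5.25e-258). Ndufs1, the largest iron-sulfur subunit, was above the floor in every library, with 80 and 53, then 31 and 32, then 86 and 74 reads in the same order. By KO its log2 fold change was -0.67 ± 0.246 (SE, adjusted P = 0.00993) and that of KO + LEENE against KO + GFP was 1.55 ± 0.234 (adjusted P = 1.05e-10). The former call was lost by DESeq2 (-0.638, adjusted P = 0.117), without the first KO + GFP library (-0.359, adjusted P = 0.339) and without the first WT + GFP library (-0.451, adjusted P = 0.186). Ndufs8, another iron-sulfur subunit, had 28 and 26, then 5 and 3, then 1 and 1 reads. Ndufs7 reached 7 and 8 reads in KO + LEENE and at most 1 elsewhere. Ndufs3 and Ndufv1, which binds the flavin cofactor, had at most 2 reads in any library. No group thus had every core subunit above the floor.

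Accessory subunits of complex I, which surround the core and stabilize it, gave the highest read numbers of the complex in KO + GFP. Ndufb9, in the membrane arm (chromosome 15, 58933810 to 58939489), had 10 and 4 reads in WT + GFP libraries, 4671 and 2982 in those of KO + GFP, and 1 and 2 in those of KO + LEENE. The KO + GFP libraries were above all others, with a log2 fold change of 9.45 ± 0.179 (SE) against WT + GFP and a ratio of 2200 to KO + LEENE (interval 751 to 10600). Ndufb3 had 1 and 0, then 1493 and 929, then 1 and 4 reads. Ndufb2 had 0 and 2, then 491 and 341, then 1 and 0 reads, and other genes share 48.7% of its last 300 exonic bases. Both followed Ndufb9, and the counts for Ndufb2 are uncertain because the libraries read 3′ ends without strand. The opposite group was high for Ndufa6, with 683 and 535 reads in WT + GFP libraries, 13 and 8 in those of KO + GFP, and 1 and 0 in those of KO + LEENE. Its log2 fold change by KO was -5.44 ± 0.191 (adjusted P = 5.47e-147), and the groups did not overlap. Ndufb5 (210 and 181 reads), Ndufa9 (117 and 130), Ndufa4 (64 and 63) and Ndufb11 (43 and 38) were also highest in WT + GFP, with at most 13 reads in any other library. Ndufa3 had 568 and 505, then 17 and 21, then 158 and 148 reads, so that KO + LEENE lay between the other groups. It was 3.22 ± 0.212 higher on the log2 scale in KO + LEENE than in KO + GFP (adjusted P = 2.2e-48) and differed from WT + GFP by -1.19 ± 0.111 (adjusted P = 1.02e-25).

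In complex II, which also serves the citric acid cycle, a single gene was well covered. Sdhc, a membrane anchor (ENSMUSG00000058076, chromosome 1, 171127165 to 171150603), had 152 and 146 reads in WT + GFP libraries, 294 and 217 in those of KO + GFP, and 311 and 337 in those of KO + LEENE. It was above the floor in all 6 libraries, and after scaling the groups did not overlap. The log2 fold change was 1.18 ± 0.122 (SE) by KO (adjusted P = 5.24e-21) and 0.56 ± 0.106 in KO + LEENE against KO + GFP (adjusted P = 4.04e-07). Sdha, the flavoprotein that oxidizes succinate, had 12 and 11, then 0 and 1, then 2 and 0 reads. Sdhb, which carries the iron-sulfur clusters, had 1 and 2, then 24 and 7, then 7 and 3 reads. Each subunit was thus highest in another group, at low read numbers for Sdha and Sdhb. Sdhb was lower in KO + LEENE than in KO + GFP (-1.39 ± 0.541, adjusted P = 0.0163), a call that was lost without the first KO + GFP library (-0.557, adjusted P = 0.621), without the second KO + LEENE library (-0.844, adjusted P = 0.284), with the replicate number as a block (-1.3, adjusted P = 0.0631), by DESeq2 (adjusted P = 0.235), with no low-count filter (adjusted P = 0.107) and with library size alone (-0.249, adjusted P = 0.7). Sdhd, the other anchor, had at most 1 read.

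Complex III showed the largest number of reads for any member. Uqcrh, the acidic hinge protein that aids electron transfer to cytochrome c (ENSMUSG00000063882, chromosome 4, 116066965 to 116075071), had 0 and 3 reads in WT + GFP libraries, 14711 and 9419 in those of KO + GFP, and 7 and 5 in those of KO + LEENE. KO + GFP was far above both other groups, at 10600 times WT + GFP (interval 3630 to 51400) and with a log2 fold change of -10.7 ± 0.193 (SE) in KO + LEENE against KO + GFP. Its higher level in KO + LEENE than in WT + GFP (2.50 ± 0.558, adjusted P = 0.00222) was lost without the first WT + GFP library (1.47, adjusted P = 0.111). Uqcrc2, a large structural core protein, had 20 and 23, then 3 and 1, then 479 and 465 reads. It was highest in KO + LEENE, 274 times KO + GFP (interval 107 to 1010, adjusted P = 1.51e-173), but all of its last 300 exonic bases are shared with Pdzd9, so its reads may not all be its own. Its partner Uqcrc1 had 97 and 61, then 7 and 0, then 1 and 1 reads, highest in WT + GFP. The small subunit Uqcrb was also highest there, with 298 and 252, then 14 and 2, then 2 and 3 reads, and Uqcr11 was highest in KO + LEENE, with 10 and 11, then 4 and 6, then 143 and 171. The small subunits Uqcrb and Uqcr11 were therefore high in different groups, and which gene the reads on Uqcrc2 came from was not tested. Cyc1 (cytochrome c1) and Uqcrfs1 (the Rieske protein), the catalytic nuclear subunits, had at most 3 reads.

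Complex IV, cytochrome c oxidase, was divided between WT + GFP and KO + GFP. Cox4i1, the common isoform of subunit 4 (ENSMUSG00000031818, chromosome 8, 120668222 to 120674207), had 1421 and 1264 reads in WT + GFP libraries, 3 and 2 in those of KO + GFP, and 340 and 382 in those of KO + LEENE. The groups did not overlap, and KO + LEENE lay between the others. WT + GFP was 407 times KO + GFP (interval 174 to 1260, adjusted P = 2.51e-289), KO + LEENE was 168 times KO + GFP (71.6 to 518, adjusted P = 2e-164), and KO + LEENE differed from WT + GFP by a log2 fold change of -1.28 ± 0.0808 (SE, adjusted P = 3.36e-52). Cox8a, a small subunit (chromosome 19, 7215158 to 7217616), had 71 and 61, then 6685 and 4330, then 194 and 159 reads. It rose by 6.77 ± 0.147 by KO (adjusted P = 1.17e-306) and had a log2 fold change of -4.74 ± 0.13 in KO + LEENE against KO + GFP (adjusted P = 8.57e-219). Cox7b had 77 and 72, then 3776 and 2460, then 1 and 2 reads, Cox6c had 7 and 7, then 1927 and 1227, then 19 and 24, and Cox6b1 had 1 and 0, then 588 and 414, then 3 and 4. These small subunits were all highest in KO + GFP, and other genes share 48.3% of the last 300 exonic bases of Cox6c. Cox7c ran the other way, with 220 and 202, then 2 and 2, then 0 and 0 reads. It was at least 45.9-fold lower in KO + LEENE than in WT + GFP (adjusted P = 1.78e-64). Cox5a and Cox5b, structural subunits near the catalytic core, had at most 1 read.

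Several complex IV subunits exist as tissue isoforms. The heart and muscle isoforms Cox6a2, Cox7a1 and Cox8b had at most 4 reads in any library, with Cox8b at 0 in all 6. The testis-associated forms Cox6b2, Cox7b2 and Cox8c had at most 2 reads, and the hypoxia-related Cox4i2 at most 3. Ndufa4l2, a relative of Ndufa4, had at most 2. Both were counted under complex I by symbol, although the Ndufa4 protein is now described as part of complex IV. The broadly expressed counterparts Cox6b1, Cox4i1, Cox7b and Cox8a had 588, 1421, 3776 and 6685 reads in their highest library, while Cox6a1 had at most 6. Since the broadly expressed Cox5b also had 0 reads, few reads on an isoform do not tell which tissue the RNA came from. Other genes share 89% of the last 300 exonic bases of Cox5a and 23.3% of those of Cox6a2. Cox7a2, the liver-type form, was covered in every library, with 181 and 125 reads in WT + GFP libraries, 136 and 61 in those of KO + GFP, and 55 and 61 in those of KO + LEENE. Its log2 fold change by KO was -0.243 ± 0.158 (SE, adjusted P = 0.162), and the groups overlapped. It was called lower by KO with library size alone (-0.728, adjusted P = 2.91e-06), without the first KO + GFP library (-0.63, adjusted P = 0.0194) and without the second WT + GFP library (-0.445, adjusted P = 0.0246). It was lower in KO + LEENE than in KO + GFP (-0.54 ± 0.193, adjusted P = 0.00861), but library size alone turned this to 0.612 (adjusted P = 0.0029), and the call was lost without the first KO + GFP library (-0.154, adjusted P = 0.657) and without the first KO + LEENE library (-0.425, adjusted P = 0.115).

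In complex V, subunits of the catalytic head and its stalk were high in different groups. Atp5f1a, the alpha subunit, had 434 and 444 reads in WT + GFP libraries, 10 and 9 in those of KO + GFP, and 9 and 7 in those of KO + LEENE. WT + GFP stood above the other groups, which overlapped, with a log2 fold change by KO of -5.12 ± 0.212 (SE, adjusted P = 1.83e-111). Atp5f1b, the beta subunit that carries the catalytic site, had 25 and 24, then 74 and 37, then 2 and 3 reads and was highest in KO + GFP (1.57 ± 0.268 by KO, adjusted P = 1.49e-08). Atp5f1d, the delta subunit of the central stalk (ENSMUSG00000003072, chromosome 10, 80138632 to 80145818), had 1 and 3, then 2 and 0, then 2304 and 2249 reads. It was high only in KO + LEENE, 2650 times KO + GFP (interval 732 to 21800) and 1740 times WT + GFP (680 to 6400). Atp5f1e, the epsilon subunit of the same stalk, was highest in WT + GFP, with 62 and 75, then 31 and 18, then 5 and 6 reads. Its lower level in KO + LEENE than in KO + GFP (-1.92 ± 0.465) was lost with library size alone (-0.775, adjusted P = 0.15). Atp5f1c, the gamma subunit, had at most 12 reads and was not tested. Alpha, beta and delta were therefore each highest in another group, although they occur together in the assembled head and stalk.

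The membrane and peripheral parts of the synthase gave further large differences. Atp5mj, a small membrane subunit (chromosome 12, 111961376 to 111966977), had 0 reads in all WT + GFP and KO + LEENE libraries and 1583 and 1005 in KO + GFP. The KO + GFP level was at least 562-fold higher than that of WT + GFP, and that of KO + LEENE was at least 368-fold lower than KO + GFP (adjusted P = 2.99e-301). Atp5mk had 15 and 10, then 556 and 315, then 0 and 0 reads, Atp5pb of the peripheral stalk had 4 and 3, then 775 and 498, then 1 and 3, and Atp5mf had 157 and 160, then 2186 and 1406, then 126 and 123. These were also highest in KO + GFP, and Atp5mf did not pass the test between KO + LEENE and WT + GFP (0.265 ± 0.127, adjusted P = 0.0521). Atp5me, a neighbor of Atp5mf in the membrane, was highest in WT + GFP, with 178 and 169, then 31 and 15, then 0 and 0 reads. The rotor ring is built of subunit c, which Atp5mc1, Atp5mc2 and Atp5mc3 encode with different targeting sequences. Atp5mc1 had 0 and 0, then 6 and 1, then 327 and 332 reads, so that KO + LEENE was at least 168-fold higher than WT + GFP (adjusted P = 1.43e-155). Atp5mc2 had 11 and 14, then 1 and 1, then 2 and 5 reads. Atp5mc3 was above the floor in every library, with 55 and 52, then 46 and 27, then 53 and 61 reads, and its log2 fold change was -0.155 ± 0.249 by KO (adjusted P = 0.594, but -0.642 and 0.0142 with library size alone) and 0.86 ± 0.244 in KO + LEENE against KO + GFP (adjusted P = 0.000787). Atp5mc1 and Atp5mc3 were both called highest in KO + LEENE, while Atp5mc2 had most reads in WT + GFP and no highest call. The inhibitor Atp5if1 had at most 2 reads.

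Promoter sequence was examined because subunits of a complex were read in different groups, and nuclear respiratory factors are known to bind promoters of many such genes. Of the 89 genes, 68 had a RefSeq promoter (GRCm38.p6), of which the 250 bases before the start were searched on both strands. The NRF-1 motif GCGCANGCGC occurred in 13 of the 68 genes (19.1%) and in 4.23% of all 27025 genes with a promoter. Among subunits highest in WT + GFP, KO + GFP and KO + LEENE it occurred in 2 of 14, 1 of 12 and 0 of 6. The GABP (NRF-2) motif CCGGAAGT occurred in 3 of 68 (4.41%, against 3.23% of all genes), and the YY1 motif AANATGGCG in 3 of 68 (4.41%, against 1.29%). The Atp5pd promoter held both the NRF-1 and the GABP motif. A match describes letters only, and no binding was measured. The matches lying at least 10 bases inside the window in subunits highest in 1 group are given here, 5′ to 3′ on the gene's strand with the motif in capitals, to give their letters and positions. The capitals are alike by construction, since the motif chose them.
Sdha (highest in WT + GFP, chr13:74350319-74350348, minus strand, NRF-1): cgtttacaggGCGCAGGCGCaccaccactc
Sdha (the same promoter, chr13:74350276-74350305, minus strand, NRF-1): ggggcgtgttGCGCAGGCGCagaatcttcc
Atp5me (highest in WT + GFP, chr5:108434430-108434459, minus strand, NRF-1): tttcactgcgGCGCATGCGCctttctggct
Ndufa11 (highest in KO + GFP, chr17:56717692-56717721, plus strand, NRF-1): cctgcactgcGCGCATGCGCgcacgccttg
Uqcr11 (highest in KO + LEENE, chr10:80406870-80406897, minus strand, GABP): tctctcctccCCGGAAGTagatgtcaat
Ndufb11 (highest in WT + GFP, chrX:20617812-20617840, minus strand, YY1): tcaccaacacAAAATGGCGacgagaagag
Atp5pf (highest in KO + LEENE, chr16:84835046-84835074, minus strand, YY1): aagtgtaggaAAGATGGCGgagtcttagc

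Respiratory chain genes have many processed pseudogenes, copies made from the mRNA, and reads of a gene and its copy may be confused. Annotated pseudogenes with at least 90% identity over at least 150 bases of coding sequence were found for 41 members, and 81 copies of 39 members were in the files. Reads on these copies summed to 355 and 314 in WT + GFP libraries, 434 and 236 in those of KO + GFP, and 380 and 420 in those of KO + LEENE, against 4712 to 41043 subunit reads per library. Where a copy had reads, it was often in the group of its parent. The Uqcrh copies Uqcrh-ps1 and Uqcrh-ps2 together had 0 and 0 reads in WT + GFP libraries, 95 and 47 in those of KO + GFP, and 0 and 0 in those of KO + LEENE. The Ndufa4 copy Gm14450 had 79 and 69, then 2 and 3, then 0 and 0 reads. The Atp5mc1 copies had 0 and 1, then 0 and 1, then 46 and 59 reads. Some copies had more reads than the parent: Gm20519, a copy of Ndufb4, had 183 and 204 reads in KO + LEENE where Ndufb4 had 2 and 4, and Ndufs6b had 83 and 63 reads in WT + GFP where Ndufs6 had 8 and 1. Gm4707, a copy of Atp5f1b, had its most reads in KO + LEENE (100 and 116), where Atp5f1b had 2 and 3 and was lowest. Copies of Atp5pd had 7 and 12, then 34 and 28, then 0 and 0 reads, while Atp5pd itself had 0 in every library. Copies of Atp5if1 had 25 and 29 reads in WT + GFP, where Atp5if1 had 2 and 2. Which of these reads came from the parent mRNA was not tested. Exons of 27 members overlap other annotated genes, in 11 of them within the last 300 exonic bases.

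Genes that act with the respiratory chain were counted from fixed lists. Among 48 assembly factors, which build the complexes, 11 were tested, and 6 were higher and 2 lower by KO, with a median log2 fold change of 2.49 (1.63 with the bounds). In KO + LEENE against KO + GFP, 3 were higher and 5 lower (median 0.466), and against WT + GFP 4 were higher and 3 lower (0.546). Higd1a, a supercomplex assembly factor, had 1 and 1 reads in WT + GFP libraries, 1581 and 1047 in those of KO + GFP, and 2 and 0 in those of KO + LEENE, and Uqcc2 had 0 and 0, then 8 and 6, then 219 and 212. The calls came to 8, 8 and 7 of 11, where 70.1%, 67.8% and 70.7% of all genes were called, so these shares were near the background in the edgeR fit. In KO + LEENE against WT + GFP, DESeq2 called only 3 of them, and 5519 of all genes. Of 16 regulators of mitochondrial biogenesis, 8 were tested, with 5 higher and 2 lower by KO, 3 higher and 4 lower in KO + LEENE against KO + GFP, and 4 higher and 1 lower against WT + GFP (medians 1.98, -0.23 and 1.17), which is 7, 7 and 5 calls of 8 against the same background. Tfam, which packages and transcribes mitochondrial DNA, had 2 and 0, then 154 and 108, then 2 and 2 reads. Esrra, a nuclear receptor that activates oxidative genes, had 3 and 4, then 4 and 2, then 1015 and 1086 reads. Nrf1, encoding NRF-1, was covered in all libraries, with 82 and 83, then 205 and 136, then 134 and 124 reads, and differed by 1.44 ± 0.155 (SE) by KO (adjusted P = 1.54e-19) and by -0.184 ± 0.143 in KO + LEENE against KO + GFP (adjusted P = 0.252). The sign of the latter also depends on the scaling, since Nrf1 took a larger share of all reads in both KO + LEENE libraries than in KO + GFP. The same holds for Yy1, which was counted as lower there with TMM (-0.277 ± 0.0945, edgeR adjusted P = 0.00572). Its 345 and 323 reads under the LEENE virus were a larger share of all reads than its 599 and 348 in KO mice given GFP. The coactivator Ppargc1a had at most 6 reads.

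Of 23 electron carrier, coenzyme Q and ADP/ATP carrier genes, 8 were tested, and all 8 were lower by KO, where 35.8% of all genes were (median -3.75, or -2.21 with the bounds). Etfdh, Pdss1 and Vdac1 were at or under the floor in every KO library, so they were tested through WT + GFP alone and their direction was fixed beforehand. The count therefore describes the 8 tested genes and not the list. DESeq2 called 6 of this list, and the fit with the replicate number as a block called 7. In KO + LEENE against KO + GFP, 2 were higher and 1 lower (median 0.52), where 67.8% of all genes were called, and library size alone called 5. Against WT + GFP 2 were higher and 5 lower (-2.43), where 70.7% of all genes were called. Vdac1, the outer membrane channel, had 427 and 414 reads in WT + GFP libraries, 0 and 2 in those of KO + GFP, and 0 and 1 in those of KO + LEENE. The ADP/ATP carrier Slc25a4 had 48 and 39, then 22 and 17, then 2 and 1 reads. Cycs, encoding cytochrome c, was not tested and ran the other way by KO, with 0 and 1, then 8 and 11, then 0 and 0 reads. Of 17 citric acid cycle genes, 3 were tested, with 1 higher and 1 lower in each comparison, too few to set against the background (medians -0.0158, 2.57 and -2.89, or -0.0158, 0 and 0 with the bounds). Citrate synthase (Cs) had 2 and 0, then 539 and 355, then 0 and 0 reads, and fumarase (Fh1) had 32 and 39, then 0 and 0, then 1 and 0.

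Of the 13 subunits encoded in mitochondrial DNA, the partners of the nuclear subunits, 8 were read in every library, with mt-Nd3 at only 1 read in each KO + LEENE library, whereas mt-Co2, mt-Co3, mt-Nd4l, mt-Atp6 and mt-Atp8 had at most 5 reads. Their summed level was 154400 and 157400 CPM in WT + GFP libraries, 126200 and 126700 in those of KO + GFP, and 18590 and 18780 in those of KO + LEENE. The 8 genes that were read were tested, with 3 higher and 3 lower by KO (median 0.0465). With TMM all 8 were lower in KO + LEENE against KO + GFP (median -3.52) and against WT + GFP (-3.92). For mt-Nd6 the former (-0.797) depends on the scaling. It had 14101 of 5602603 and 9336 of 3625419 reads in KO + GFP libraries. In KO + LEENE libraries it had 5641 of 1770992 and 5914 of 1791336, a larger share. Of all genes, 34.3% were higher and 35.8% lower by KO, and 35.0% and 36.9% were lower in the other comparisons, with medians of -0.0861, -0.0112 and -0.106. The gene mt-Co1, encoding the catalytic subunit of complex IV, had 22092 and 20279 reads in WT + GFP libraries, 86976 and 55912 in those of KO + GFP, and 5567 and 5731 in those of KO + LEENE. The sum of these coding genes was thus lowest in KO + LEENE, where the nuclear complex V sum before rescaling was highest. All reads of the mitochondrial chromosome, RNA genes included, made up 50.1% and 50.9% of WT + GFP reads, and 33.6% to 34.3% in the other libraries, nearly the same in both KO groups.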

How the data were processed

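RNA from CD144-enriched hind limb cells was made into libraries with the 10x 3′ v3.1 kit without the droplet step. Per the labels and file headers, the authors used bcl2fastq 2.18, STAR 2.5.4b and featureCounts 2.0.0 (exons, unstranded, Ensembl 84, GRCm38), while the study's methods name mm9. The deposited files hold raw read counts per gene, without collapsing of molecular identifiers. Gene names were matched through GENCODE, which named 43465 of 47729 identifiers.

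The 6 libraries were grouped by the labels. Counts were tested with edgeR 4.0.16 (quasi-likelihood, TMM, R 4.3.3) in a fit of all groups, over 8903 genes kept by filterByExpr (in at least 2 libraries the CPM that 10 reads make in a library of median size, and 15 reads over all libraries). P values were adjusted by Benjamini-Hochberg within a comparison at a threshold of 0.05. With 2 libraries a group, an exact permutation test cannot go below 0.333, and none was run. Ratios with few reads carry exact (Clopper-Pearson) 95% intervals. A fold against 0 reads uses a floor of 3 reads per library as its bound. Pseudogene copies were found with blastn 2.17.0 in annotated transcripts. The values of 1 member, included in all counts and sums, are not reported here. Scripts were tested on simulated data. Members, gene lists and named genes (core subunits, isoforms and the tested subunits with the largest changes) were chosen with earlier results of these data known, and other genes named were chosen after their values were seen.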

Additional observations from a re-analysis of the deposited data

How the results depend on the processing

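Of 42, 37 and 38 subunit calls (KO + GFP against WT + GFP, KO + LEENE against KO + GFP, and KO + LEENE against WT + GFP), a called direction turned only for Cox7a2 in KO + LEENE against KO + GFP with library size alone (0.612) among the 14 alternatives. Asking for 10 reads in every sample left 5 (3 higher, 2 lower), 7 (4 and 3) and 6 (4 and 2) calls, because few subunits reach that number in every library. It left 1, 1 and 1 assembly factors, 2, 1 and 2 regulators, 0, 0 and 0 cycle enzymes, and 2, 0 and 1 carriers. With no filter 6, 4 and 5 cycle enzymes were called, without mitochondrially encoded genes 0 of those were left by construction, and DESeq2 called 3 assembly factors in KO + LEENE against WT + GFP. Library size alone called 5 carriers in KO + LEENE against KO + GFP, changed the summed log2 ratio to 2.3, -1.46 and 0.835, and turned that of complex V in KO + LEENE against KO + GFP to 0.761. The summed ratio of KO + LEENE to WT + GFP was 0.2 with RLE size factors and 0.186 without mitochondrially encoded genes. Leaving out 1 library gave 41 to 46 calls (21 to 24 higher, 19 to 22 lower), 34 to 39 (11 to 13, 22 to 26) and 33 to 40 (11 to 16, 21 to 24) in these comparisons. For assembly factors it gave 10 to 12, 9 to 10 and 4 to 9, for mitochondrially encoded subunits 6 to 7, 8 and 8, for regulators 6 to 7, 5 to 7 and 4 to 5, for cycle enzymes 2 to 5, 2 to 3 and 2 to 4, and for carriers 6 to 10, 3 to 5 and 6 to 8. The summed ratio ran from 2.73 to 2.86, from -2.68 to -2.55 and from 0.149 to 0.23.

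Signs of uncalled log2 fold changes also turned. Without 1 library, Atp5f1d by KO ran from -3.76 to 0.386 (0.171 in between), Cox7a2 by KO from -0.63 to 0.0151 and Ndufs7 by KO from -2.9 to 0. In KO + LEENE against KO + GFP, Sdha ran from -2.43 to 3.5, Uqcrb from -2 to 0.23, Uqcrc1 from -2.26 to 3.41, Atp5f1a from -0.248 to 0.196 and Ndufv2 from -0.999 to 0.52. There Atp5f1a also turned to 0.00434 with DESeq2, 0.0112 with RLE, 1.11 with library size and 0.102 with no filter, and Ndufv2 to 1.01 with library size and 0.0282 with no filter. The cause was not tested. Beside the calls given with the results, Atp5mc1 by KO was lost without the first KO + GFP library (adjusted P = 0.147), and Ndufb3 (0.0584 to 0.512), Cox6b1 (0.0587 and 0.0961), Sdhb (0.302 and 0.156) and Sdha (0.155) in KO + LEENE against WT + GFP were lost without 1 library by edgeR. Without 1 library, Ndufb5 and Atp5pf in KO + LEENE against KO + GFP, and Ndufb10, Ndufa11 and Atp5pf in KO + LEENE against WT + GFP, also lost their calls. DESeq2 kept 41 of 42, 34 of 37 and 33 of 38 calls, losing Ndufs1 by KO, Sdhb, Cox7a2 and Atp5pf in KO + LEENE against KO + GFP, and Ndufb3, Sdhb, Sdha, Atp5pf and Ndufb10 against WT + GFP. Ndufb5 was lost without the first KO + GFP library or either KO + LEENE library. Calls were gained for Atp5mc2 (2.99) and Ndufa4 (3.33) in KO + LEENE against KO + GFP with library size alone, and without 1 library for Ndufa4 (2.99) and Uqcrb (-2) there and for Ndufb9 (-1.99) against WT + GFP.

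With the replicate number as a block, 42, 35 and 38 subunits were called, and Atp5mj, at 0 reads in both groups, turned to 0.0038 in KO + LEENE against WT + GFP. Deviations of same-numbered libraries correlated at 0.0325, 0.0134 and 0.0195. Deviations near read sampling would correlate little with or without pairing, so these values cannot show whether libraries were paired. The labels name no pairing, and none was used. Depth limits the genes at or under 3 reads.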
